A study of Mus musculus with 18 samples.

Results

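The 10 genes Mfn1, Mfn2, Opa1, Oma1, Yme1l1, Dnm1l, Fis1, Mff, Immt and Tfam, which shape the mitochondrial network and its inner membrane, were followed across 3 adipose tissues of the mouse. They were taken by gene symbol from a table of 54347 genes, in which each symbol stood once, and all 10 were among the 18728 genes that passed the filter on low counts. Polyadenylated RNA had been sequenced from interscapular brown (iBAT), inguinal white (iWAT) and epididymal white adipose tissue (eWAT) of 6 mice, 3 wild type (wt) and 3 knockout (ko), which gave 6 groups of 3 libraries. All mice were 12 weeks old, on the C57BL/6N background and fed chow, and the ko mice carried a CRISPR/Cas9 deletion that removes exon 1 of the long noncoding RNA Gm15551 and is not limited to a tissue. The wt mice were litter mates from the same line, which carries a single verified deletion and had been backcrossed to wild type animals, and sex was not given in the labels. Each mouse gave all 3 tissues, so the tissues could be compared within a mouse.

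Mitochondria fuse and divide continuously. The GTPases Mfn1 and Mfn2 join outer membranes, Opa1 joins inner membranes and keeps cristae narrow, and the proteases Oma1 and Yme1l1 cut Opa1 into long and short forms. Division is carried out by the GTPase Dnm1l, which the outer membrane proteins Mff and Fis1 help to bind, while Immt (mitofilin) is the core of the MICOS complex at the neck of the cristae and Tfam packs and transcribes the mitochondrial genome. Brown adipocytes are packed with mitochondria whose dense cristae carry the uncoupled respiration that makes heat, whereas a white adipocyte holds few mitochondria around a single lipid droplet.

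Total counts ranged from 14997901 to 34389586 per library, and the mitochondrial genome took 22.9% to 26.99% of the counts in iBAT and 3.77% to 9.64% in the white tissues. Levels are given as CPM, counts per 1000000, with the library total scaled by the trimmed mean of M values (TMM). The targeted RNA, Gm15551, held 40 to 316 counts in the wt libraries and 0 to 4 in the ko libraries. Summed over 11 thermogenic markers, iBAT libraries held 7714 to 13453 CPM, iWAT 34.9 to 369 CPM and eWAT 16.6 to 30.0 CPM, and the 5 mesothelial markers were highest in eWAT. The 7 immune markers summed to 34.3 to 105 CPM in iBAT, 157 to 1719 CPM in iWAT and 109 to 437 CPM in eWAT. Several white libraries stood apart. The 8 lymph node markers summed to 949.98 CPM in iWAT wt 3 and 401 CPM in iWAT ko 2 but to 3.67 to 20.1 CPM in the other iWAT libraries. The 13 skeletal muscle markers summed to 5137 CPM in iWAT ko 1 and the 10 epididymis markers to 5005 CPM in eWAT ko 3. These 4 libraries, called here those carrying other tissue, were also left out as an alternative. The 7 common adipocyte markers, 20992 to 23139 CPM in iBAT, summed to 8783 CPM in iWAT wt 3, 12947 CPM in iWAT ko 2, 11013 CPM in eWAT ko 3 and 15971 CPM in eWAT wt 1, against 22425 to 24737 CPM in the other white libraries.

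To ask how the machinery of mitochondrial shape differs between brown and white fat, the tissues were compared with edgeR's quasi-likelihood test on all 18 libraries, with Benjamini-Hochberg adjustment over all genes and a threshold of 0.05. On the TMM scale, 8 of the 10 genes were higher in iBAT than in iWAT, 0 were lower, and Oma1 and Fis1 did not pass. Of all genes tested, 24.0% were higher and 30.3% lower in iBAT in this comparison. Against eWAT on that scale, the same 8 genes were higher, Oma1 was lower, and Fis1 did not pass, where 24.4% of all genes were higher and 30.2% lower. For these 8 genes every iBAT library lay above every iWAT and every eWAT library in TMM-scaled CPM, an arrangement found in 17.7% of all genes against iWAT and 18.8% against eWAT. The median log2 fold change of the 10 genes was 1.07 against iWAT and 1.17 against eWAT, while over all genes it was -0.14 and -0.17. In bulk tissue, more cells of a type and more RNA per cell cannot be told apart, so these values describe the tissue as a whole.

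The size of these differences, and for some genes the direction, depended on the scaling. The factors by which TMM multiplied the library totals lay between 0.617 and 0.744 for iBAT and between 1.06 and 1.44 for white fat, so TMM raised iBAT values against white fat values. When edgeR was run on library totals with no TMM factor, an alternative added after the values were seen, the median over all genes moved from a log2 fold change of -0.14 to -0.95 against iWAT and from -0.17 to -1.04 against eWAT, with 7.68% and 8.43% of all genes higher in iBAT and 68.4% and 70.3% lower. On that scale Immt, Opa1, Mfn1, Mfn2 and Mff were still higher in iBAT in both comparisons and without overlap, while Tfam passed only against eWAT and Dnm1l in neither. Yme1l1 turned to lower in iBAT (-0.36 and -0.44 against iWAT and eWAT), Fis1 was lower (-0.70 and -0.80) and so was Oma1 (-0.68 and -1.20), each past the threshold and without overlap between brown and white libraries. With the mitochondrial genome left out of the totals, the median of all genes was -0.62 and -0.68, and 7 genes were higher in both comparisons, Fis1 and Oma1 lower, and Yme1l1 did not pass (-0.038 and -0.087). On library totals the median of the 10 genes was 0.26 and 0.30. All values that follow are on the TMM scale, relative to the genes as a whole, unless another is named.

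**Figure D1:**
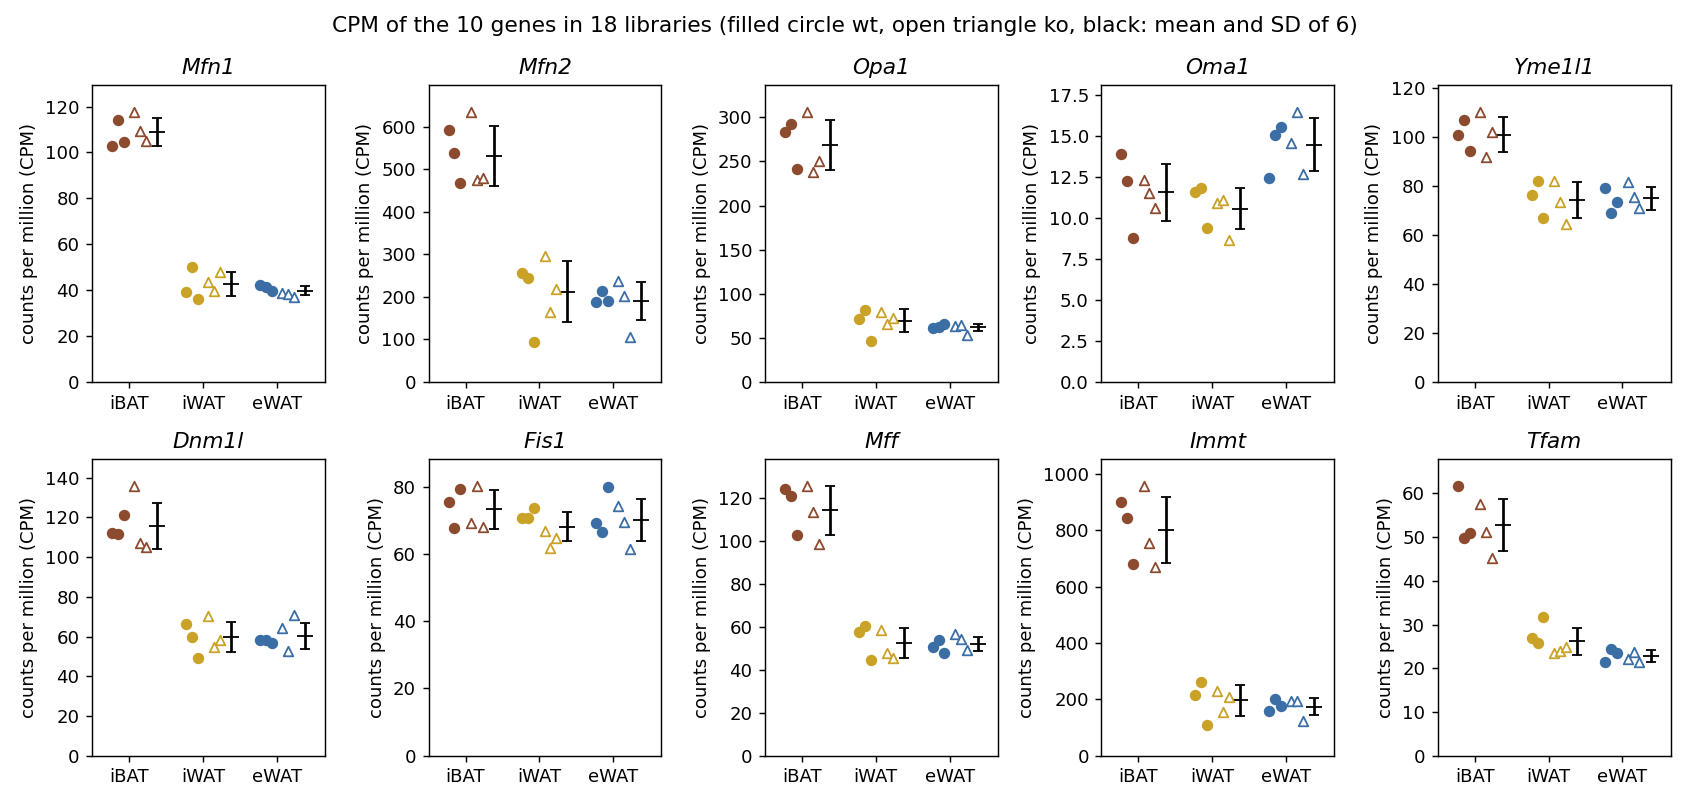
Level of each gene in the 18 libraries, with CPM on a linear axis that starts at 0 and the 3 tissues on the horizontal axis. Filled circles are wt, open triangles ko, and the black bar is the mean and SD of 6 libraries. On this TMM scale all iBAT points lie above all white points in 8 panels, while the ranges of Fis1 overlap and Oma1 is highest in eWAT. As shares of library totals, Yme1l1, Fis1 and Oma1 are lower in iBAT than in both white tissues.

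**Figure D2:**
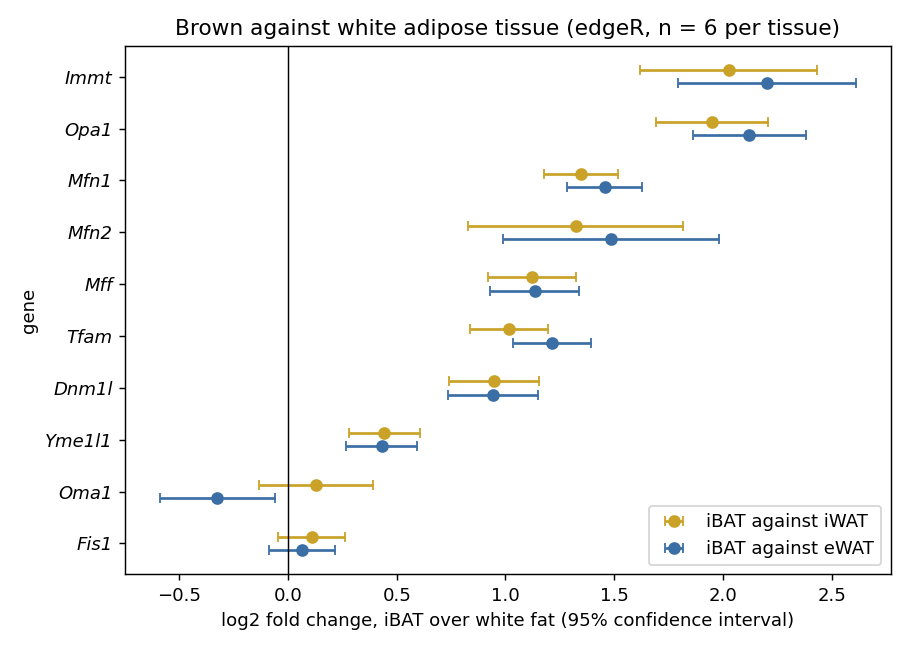
Log2 fold change of iBAT over each white tissue, from edgeR with 6 libraries per tissue. Points are estimates and bars 95% confidence intervals. Immt (2.03 and 2.20) and Opa1 (1.95 and 2.12) stand at the top, and the intervals of Fis1 include 0 in both comparisons on this TMM scale. On library totals Yme1l1, Fis1 and Oma1 are lower in iBAT in both comparisons.

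Among the genes for inner membrane structure, Immt (ENSMUSG00000052337.15, chromosome 6, 71831331 to 71877388, GRCm38) was lowest at 670, median 800 and highest at 959 CPM in iBAT. In the same order it held 109.9, 212 and 261 CPM across iWAT libraries, and 123, 185 and 202 CPM across those of eWAT. The lowest iBAT library was thus far above the highest white library. Immt was 4.08-fold higher in iBAT than in iWAT (log2 fold change 2.03 ± 0.19 SE, edgeR adjusted p = 2.25e-07) and 4.60-fold higher than in eWAT (2.20 ± 0.19, adjusted p = 6.65e-08). Opa1 (ENSMUSG00000038084.16, chromosome 16, 29579334 to 29654884), the inner membrane fusion GTPase, moved by nearly as much. It held 238, 267 and 306 CPM in iBAT (lowest, median, highest). In iWAT the values were 46.7, 72.1 and 82.0 CPM, and in eWAT 53.6, 62.9 and 65.3 CPM. The log2 fold change was 1.95 ± 0.12 against iWAT (adjusted p = 3.21e-09) and 2.12 ± 0.12 against eWAT (adjusted p = 8.29e-10), with brown and white libraries fully apart. Without the 4 libraries carrying other tissue, Immt stood at 1.81 and 2.11 and Opa1 at 1.83 and 2.08 on the log2 scale, and both calls held.

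The outer membrane fusion pair was higher in iBAT by similar amounts. Mfn1 (ENSMUSG00000027668.13, chromosome 3, 32529465 to 32579239) had 103, 107 and 118 CPM in iBAT. Its white fat levels were 36.3, 41.5 and 49.9 CPM for iWAT and 37.1, 39.3 and 42.3 CPM for eWAT. Mfn2 (ENSMUSG00000029020.13, chromosome 4, 147873599 to 147904704) had 468, 509 and 635 CPM in iBAT. The white libraries had 94.4, 232 and 296 CPM (iWAT) and 107, 195 and 237 CPM (eWAT). Brown and white libraries did not overlap for either gene, but the white libraries of Mfn2 were spread more widely than those of Mfn1. Mfn1 rose by 1.35 ± 0.08 against iWAT (adjusted p = 2.44e-09) and 1.46 ± 0.08 against eWAT (adjusted p = 6.38e-10) on the log2 scale. Mfn2 rose by 1.32 ± 0.23 (adjusted p = 0.000161) and 1.49 ± 0.23 (adjusted p = 4.74e-05). Without the 4 libraries carrying other tissue the Mfn2 differences were 1.14 and 1.36, still past the threshold.

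Of the proteases that cut Opa1, Yme1l1 was higher in iBAT than in both white tissues on the TMM scale but lower on library totals, and Oma1 was lower than in eWAT on both. Yme1l1 (ENSMUSG00000026775.9, chromosome 2, 23156369 to 23199260), the ATP-dependent inner membrane protease, had 92.0, 101 and 110 CPM in iBAT. In iWAT the values were 64.5, 75.0 and 82.0 CPM, and in eWAT 68.9, 74.6 and 81.4 CPM. It was higher in iBAT without overlap, by 0.44 ± 0.08 against iWAT (adjusted p = 0.000154) and 0.43 ± 0.08 against eWAT (adjusted p = 0.000185), the smallest differences among the 8 genes. As a share of library totals it was instead lower in iBAT without overlap, at 61.3 to 74.1 counts per 1000000 against 76.2 to 96.8 in iWAT and 81.2 to 105.6 in eWAT. Oma1 (ENSMUSG00000035069.3, chromosome 4, 103313812 to 103371868), the stress-activated protease, had 8.79, 11.9 and 13.9 CPM in iBAT. Its white fat levels were 8.66, 10.99 and 11.8 CPM for iWAT and 12.4, 14.8 and 16.5 CPM for eWAT. All 6 iWAT libraries lay below all 6 eWAT libraries, and the iBAT range overlapped both. Oma1 was lower in iBAT than in eWAT (log2 fold change -0.32 ± 0.12, edgeR adjusted p = 0.0363) and did not pass against iWAT (0.13 ± 0.12, adjusted p = 0.40), where it was lower on library totals (-0.68). The call against eWAT was lost in 16 of 34 alternatives, among them the size factors of DESeq2 (adjusted p = 0.0514). It was also lost when iBAT wt 2, wt 3, ko 2 or ko 3, or eWAT wt 2, wt 3, ko 1 or ko 2 was left out (edgeR adjusted p = 0.0510 to 0.0947), with the direction unchanged in each.

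Among the division genes on the TMM scale, the GTPase and 1 of its receptors rose while the other receptor did not pass. Dnm1l (ENSMUSG00000022789.15, chromosome 16, 16312230 to 16358959) had 105, 112 and 136 CPM in iBAT. The white libraries had 49.2, 59.3 and 70.4 CPM (iWAT) and 52.6, 58.3 and 70.8 CPM (eWAT). Mff (ENSMUSG00000026150.14, chromosome 1, 82724890 to 82752394) had 98.6, 117 and 126 CPM in iBAT. In iWAT the values were 44.7, 52.6 and 60.4 CPM, and in eWAT 47.7, 52.2 and 56.6 CPM. Neither gene had overlapping groups between brown and white fat on this scale, while on library totals Dnm1l overlapped and did not pass (0.15 and 0.06). The log2 fold changes of Dnm1l were 0.95 ± 0.10 (adjusted p = 5.59e-07) and 0.94 ± 0.10 (adjusted p = 4.51e-07) against iWAT and eWAT, and those of Mff were 1.12 ± 0.10 (adjusted p = 6.94e-08) and 1.13 ± 0.10 (adjusted p = 4.22e-08). Fis1 (ENSMUSG00000019054.13, chromosome 5, 136953275 to 136966234) had 67.6, 72.3 and 80.3 CPM in iBAT. Its white fat levels were 61.8, 68.7 and 73.6 CPM for iWAT and 61.3, 69.5 and 79.8 CPM for eWAT. All 3 ranges overlapped. Its log2 fold change was 0.11 ± 0.07 against iWAT (adjusted p = 0.216) and 0.06 ± 0.07 against eWAT (adjusted p = 0.469), and the 95% intervals ran from 0.970-fold to 1.20-fold and from 0.940-fold to 1.16-fold. The estimates for Mff, 2.18-fold and 2.19-fold, lay above both intervals. On library totals Fis1 was lower in iBAT, at 42.7 to 59.1 counts per 1000000 against 71.3 to 106.2 in iWAT and 78.4 to 96.1 in eWAT, while Mff was higher (0.32 and 0.26).

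Tfam (ENSMUSG00000003923.14, chromosome 10, 71225464 to 71238280) had 45.2, 51.1 and 61.8 CPM in iBAT. The white libraries had 23.4, 25.3 and 31.8 CPM (iWAT) and 21.3, 22.7 and 24.5 CPM (eWAT). It was higher in iBAT without overlap, 2.02-fold against iWAT (1.02 ± 0.08, edgeR adjusted p = 5.13e-08) and 2.32-fold against eWAT (1.21 ± 0.08, adjusted p = 4.81e-09). On library totals the differences were 0.19, which did not pass, and 0.34. The highest white library was iWAT wt 3, which held the most lymph node RNA and had the lowest Mfn2, Immt, Opa1 and Mfn1 of iWAT. The part of other cells in that value was not tested. Short stretches of Dnm1l, Mff and Immt exons lie opposite genes on the other strand (243, 195 and 185 bases), whose own counts did not exceed 38 in any library.

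The promoter windows of 5 of the genes are shown because they cover the range of the tissue difference, from the largest (Immt, Opa1) through Mfn2 to Fis1 and Oma1. Each window, from RefSeq (GRCm38.p6), runs from 250 bases before to 50 after the transcription start and is written 5′ to 3′ on the gene's strand. All 10 genes had an entry. The windows lie at chr6:71831070-71831369 on the plus strand for Immt, chr16:29579084-29579383 on the plus strand for Opa1, chr4:147904649-147904948 on the minus strand for Mfn2, chr5:136953025-136953324 on the plus strand for Fis1 and chr4:103313596-103313895 on the plus strand for Oma1. Capitals mark TGCGCA, the half-site of nuclear respiratory factor NRF1, and the core bound by ETS factors such as GABP, CGGAAG, which reads CTTCCG on the opposite strand. A further motif, AAGGTCA, the half-site of oestrogen-related receptors, was searched too, and both strands were read for all 3.
Immt: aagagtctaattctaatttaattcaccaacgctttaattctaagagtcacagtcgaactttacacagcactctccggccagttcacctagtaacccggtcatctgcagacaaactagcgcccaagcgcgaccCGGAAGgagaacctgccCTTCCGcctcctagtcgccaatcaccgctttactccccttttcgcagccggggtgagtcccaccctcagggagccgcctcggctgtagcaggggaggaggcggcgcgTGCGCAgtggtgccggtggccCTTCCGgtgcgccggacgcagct
Opa1: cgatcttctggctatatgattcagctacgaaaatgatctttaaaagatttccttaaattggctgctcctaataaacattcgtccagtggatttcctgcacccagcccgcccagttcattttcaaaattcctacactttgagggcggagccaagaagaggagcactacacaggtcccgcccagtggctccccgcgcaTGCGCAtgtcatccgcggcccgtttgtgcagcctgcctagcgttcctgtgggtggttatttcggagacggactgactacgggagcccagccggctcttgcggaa
Mfn2: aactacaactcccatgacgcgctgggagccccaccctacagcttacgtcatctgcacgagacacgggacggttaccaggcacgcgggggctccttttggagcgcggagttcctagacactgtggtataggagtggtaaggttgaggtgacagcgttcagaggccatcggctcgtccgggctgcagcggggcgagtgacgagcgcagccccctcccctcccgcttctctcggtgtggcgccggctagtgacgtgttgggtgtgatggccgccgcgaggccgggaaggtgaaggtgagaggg
Fis1: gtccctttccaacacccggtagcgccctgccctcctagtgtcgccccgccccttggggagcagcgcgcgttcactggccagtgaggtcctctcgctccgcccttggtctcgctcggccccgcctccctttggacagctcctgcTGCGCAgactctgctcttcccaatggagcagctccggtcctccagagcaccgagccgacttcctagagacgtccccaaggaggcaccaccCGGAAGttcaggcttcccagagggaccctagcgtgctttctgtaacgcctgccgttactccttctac
Oma1: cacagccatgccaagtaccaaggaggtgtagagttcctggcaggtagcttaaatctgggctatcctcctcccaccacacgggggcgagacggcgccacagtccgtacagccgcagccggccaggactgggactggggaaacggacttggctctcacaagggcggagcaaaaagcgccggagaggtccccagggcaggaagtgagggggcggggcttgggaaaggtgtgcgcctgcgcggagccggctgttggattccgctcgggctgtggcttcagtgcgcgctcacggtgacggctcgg
TGCGCA was in 3 of the 10 windows (Immt, Opa1, Fis1) and in 7.76% of 32851 promoter windows of the same length. CGGAAG was in 6 of the 10 (Immt, Fis1, Mfn1, Mff, Yme1l1, Tfam) and in 16.9% of all windows, and AAGGTCA was in 0 of the 10 and in 4.72% of all. Fis1, which did not pass between brown and white fat, held both TGCGCA and CGGAAG, while Mfn2 and Dnm1l, both higher in iBAT on the TMM scale, held none of the 3. The matches describe these letters in these windows and nothing beyond them.

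Ratios between partners were then taken within each library, where library scaling cancels. For each of 5 pairs and 3 tissue comparisons the 6 mice were compared by a two-sided exact paired permutation test, whose smallest possible p is 0.03125, and values were adjusted over the 15 tests. Of these, 7 reached that smallest p, which is 0.0670 after adjustment, so none passed 0.05. That outcome depended on the test, since the smallest p of the paired test is set by its 6 pairs. With no pairing (6 against 6 libraries, exact permutation test), where smaller p-values are possible, the same 7 passed. Their adjusted p in that test was 0.00541 for 6 of them and 0.0139 for Yme1l1 to Oma1 between iBAT and iWAT. The linear count ratio of Mff to Fis1 had a lowest, median and highest value of 1.29, 1.54 and 1.82 in iBAT, 0.607, 0.792 and 0.876 in iWAT, and 0.598, 0.771 and 0.812 in eWAT. It was higher in iBAT in 6 of 6 mice against both white tissues, by 1.02 ± 0.08 and 1.07 ± 0.17 on the log2 scale (SD of the differences, n = 6, exact permutation p = 0.03125, adjusted p = 0.0670). The ratio of Yme1l1 to Oma1 was 7.21, 8.82 and 10.7 in iBAT, 6.58, 7.03 and 7.50 in iWAT, and 4.56, 5.13 and 6.34 in eWAT. It fell in the order iBAT, iWAT, eWAT in 6 of 6 mice. The log2 differences were 0.32 ± 0.15 between iBAT and iWAT, 0.76 ± 0.33 between iBAT and eWAT, and 0.44 ± 0.20 between iWAT and eWAT (SD, n = 6, exact permutation p = 0.03125 and adjusted p = 0.0670 for each).

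For Mfn2 to Mfn1 and Immt to Opa1 the differences were within the spread between mice. Mfn2 to Mfn1 had a median count ratio of 4.64 in iBAT, 4.72 in iWAT and 4.96 in eWAT, and the log2 differences between tissues were 0.05 ± 0.39, 0.06 ± 0.37 and 0.01 ± 0.58 (SD, n = 6, exact permutation p = 0.844, 0.75 and 1.0). Within the white tissues, however, this ratio ran from 2.60 to 6.82, with its low points in iWAT wt 3 (2.60) and eWAT ko 3 (2.87), and the first 2 differences were -0.07 and -0.06 over mice without a library carrying other tissue. Immt to Opa1 had medians of 3.01, 2.87 and 2.83 in iBAT, iWAT and eWAT, with log2 differences of 0.11 ± 0.21, 0.09 ± 0.16 and -0.01 ± 0.25 (SD, n = 6, exact permutation p = 0.3125, 0.219 and 0.906). Tfam was also set against the summed counts of the 13 mitochondrially encoded protein genes. That ratio was lower in iBAT in 6 of 6 mice, with log2 differences of -1.66 ± 0.64 against iWAT and -2.04 ± 0.17 against eWAT (SD, n = 6, exact permutation p = 0.03125, adjusted p = 0.0670).

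**Figure D3:**
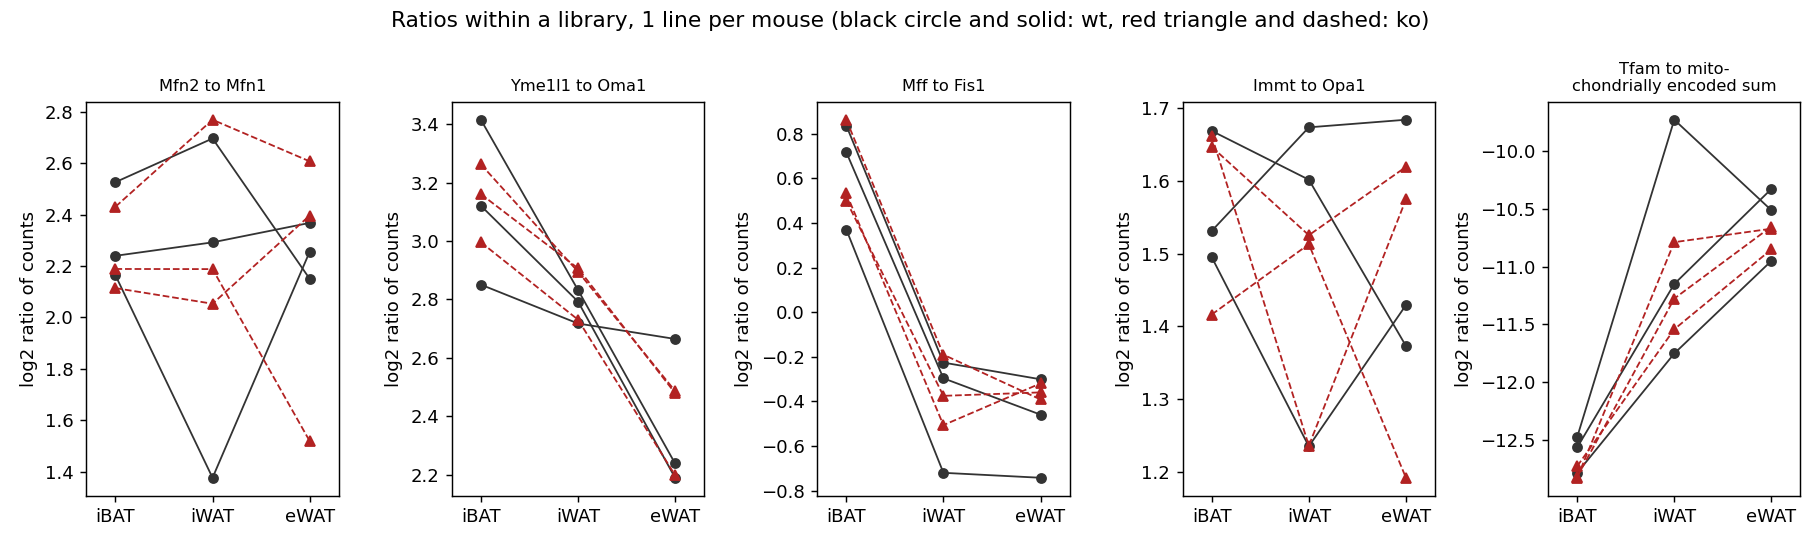
Log2 ratio of counts within a library for 5 pairs (vertical axes, not from 0), with the tissue on the horizontal axis and 1 line for each of 6 mice (black solid wt, red dashed ko). The lines of Mff to Fis1 drop from iBAT to both white tissues in all 6 mice, those of Yme1l1 to Oma1 fall in each step, and those of Mfn2 to Mfn1 and Immt to Opa1 cross.

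Per unit of transcript length the 10 genes could be ranked within a tissue. With the median length of the protein-coding transcripts in GENCODE M21, Immt led iBAT at 324 ± 32.9 TPM (length-scaled levels that sum to the same total in each library, with no TMM factor), followed by Mfn2 at 128 ± 12.2 and Fis1 at 93.8 ± 9.88, and Oma1 was last at 6.03 ± 0.649 (SD, n = 6). In iWAT, Fis1 at 185 ± 24.0 and Immt at 165 ± 31.6 led with overlapping ranges, and in eWAT Fis1 led at 204 ± 18.5, ahead of Immt at 161 ± 20.9. With this length Mfn2 was the third in both white tissues and Oma1 the last. The ranking depended on the length chosen. With the length of all exons joined, Mfn2 stood above Immt in iBAT (135 and 93.1), iWAT (127 and 53.9) and eWAT (129 and 54.4), and Oma1 (23.9) was no longer last in eWAT, where Tfam was (18.2).

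The white tissues were compared with each other to see which genes set the depots apart. Of the 10 genes, 0 were higher in iWAT, 1 was lower and 9 did not pass, where 5.7% of all genes were higher and 4.5% lower. The 1 gene was Oma1, lower in iWAT (log2 fold change -0.45 ± 0.12, edgeR adjusted p = 0.0298), with no overlap between the 6 iWAT and 6 eWAT libraries, as in 2.33% of all genes. The call was lost in 15 of 34 alternatives. It was lost without the 4 libraries carrying other tissue, where the log2 fold change was -0.48 (edgeR adjusted p = 0.0651), and when iWAT wt 3, ko 2 or ko 3 or eWAT wt 2, wt 3, ko 1 or ko 2 was left out (adjusted p = 0.0549 to 0.0671). Tfam was next, at 0.20 ± 0.08 (edgeR adjusted p = 0.149). The other 8 genes ran from -0.045 (Fis1) to 0.173 (Immt) on the log2 scale, and the widest interval, that of Mfn2, ran from -0.32 to 0.65.

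Within each white tissue the genes varied unequally between libraries. In iWAT, Mfn2 read 255, 245 and 94.4 CPM in wt 1 to 3 and 296, 164 and 219 CPM in ko 1 to 3. In eWAT it read 188, 215 and 189 CPM in wt 1 to 3 and 237, 202 and 107 CPM in ko 1 to 3. The 3 lowest values, in iWAT wt 3, eWAT ko 3 and iWAT ko 2, were also the 3 lowest of Immt (109.9, 123 and 154 CPM), and they came from the 3 libraries with the lowest sums of common adipocyte markers. Fis1 held 73.6, 61.3 and 61.8 CPM in these libraries, in the order above. The last 2 were its lowest white values, while 73.6 CPM in iWAT wt 3 was its highest in iWAT, and all 12 white libraries lay between 61.3 and 79.8 CPM. Dnm1l had its highest eWAT value, 70.8 CPM, in ko 3. The part of adipocyte share and of carried tissue in these values was not tested.

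**Figure D4:**
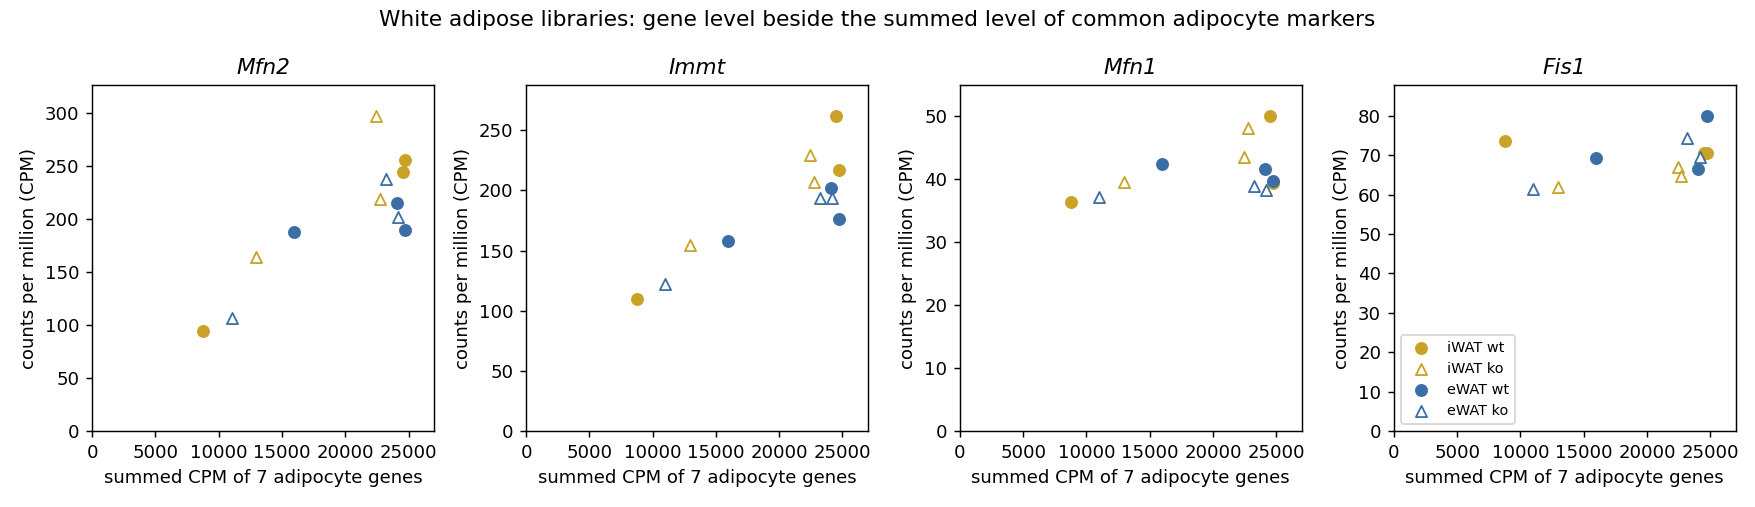
CPM of Mfn2, Immt, Mfn1 and Fis1 in the 12 white libraries (vertical axes, from 0) against the summed CPM of 7 common adipocyte markers (horizontal axis). Mfn2 and Immt are lowest where the marker sum is lowest, at 94.4 and 109.9 CPM beside 8783 CPM in iWAT wt 3, while Fis1 stays between 61.3 and 79.8 CPM.

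In iBAT, where the adipocyte sum was even, Immt, Mfn2 and the thermogenic sum were highest in the same libraries. Immt read 901, 845 and 682 CPM in wt 1 to 3 and 959, 754 and 670 CPM in ko 1 to 3. Mfn2 read 591, 539 and 468 CPM in wt and 635, 474 and 479 CPM in ko. The libraries highest in both, ko 1 and wt 1, also had the highest thermogenic sums (13453 and 12299 CPM), while wt 3 and ko 3 had the lowest sums (8204 and 7714 CPM) and the lowest Immt. Over the 18 libraries with each tissue's mean subtracted, the log2 CPM of Mfn2 had a Pearson correlation of 0.94 with Immt, 0.90 with Opa1, 0.71 with Mff, 0.58 with Mfn1, 0.57 with Yme1l1, 0.48 with Oma1, 0.40 with Dnm1l, 0.07 with Fis1 and -0.18 with Tfam. These are descriptions over libraries that share mice, depth and carried tissue. Among the tested genes that had a symbol, the 5 most like Mfn2 by this measure were Kif1c (0.990), Ak3 (0.984), Dhdh (0.979), Fitm2 (0.979) and Nfix (0.978). Without subtracting tissue means they were Clybl (0.991), Miga2 (0.990), Prkaca (0.990), Pex14 (0.988) and Bcl2l13 (0.988).

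The neighbouring genes of the pathway were read from lists of symbols, on the TMM scale unless another is named. On it, 24.0% and 24.4% of all genes were higher and 30.3% and 30.2% lower in iBAT than in iWAT and eWAT. Counts on library totals stand beside 7.68% and 8.43% of all genes higher and 68.4% and 70.3% lower on that scale. Of 24 other fusion and fission genes, 18 were higher and 1 lower in iBAT than in iWAT, and 18 were higher and 3 lower than in eWAT (median log2 fold change 1.07 and 1.21), and on library totals 12 and 13 were higher and 4 and 7 lower. Afg3l2, a subunit of the inner membrane m-AAA protease, rose by 2.34 and 2.52 on the TMM scale. Mief2, an outer membrane receptor of Dnm1l, rose by 1.82 and 2.08, and Mtfp1, an inner membrane protein that promotes division, by 2.80 and 3.70. Mtfr2 was lower (-1.88 and -1.30) but held 1 to 5 counts per iBAT library. Of 22 MICOS and cristae genes, 21 and 20 were higher and 0 lower (median 1.93 and 2.03), and on library totals 16 and 16 were higher and 1 and 3 lower. Micos10 (2.11 and 2.19) belongs to MICOS like Immt, Mtx2 (2.22 and 2.29) and Samm50 (2.21 and 2.52) belong to the outer membrane sorting complex it joins, and Chchd10 reached 3.21 and 4.51. Chchd10 and Chchd3, another MICOS subunit, were the 2 of these 22 genes higher in iWAT than in eWAT (1.30 and 0.63, edgeR adjusted p = 0.0329 and 0.0291), and of the 24 fusion and fission genes it was Mtfp1 (0.90, adjusted p = 0.0427). These shares are near the 5.7% of all genes higher in iWAT.

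Of 18 genes that work beside Tfam in upkeep and transcription of the mitochondrial genome, 14 and 15 were higher in iBAT and 0 lower (median 0.94 and 1.09). On library totals it was 5 and 6 higher and 7 and 6 lower, where 7.68% and 8.43% of all genes were higher and 68.4% and 70.3% lower. The genes higher on the TMM scale included the mRNA-binding Lrpprc (2.04 and 2.28), the transcription factor Tfb2m (1.80 against iWAT) and the polymerase Polrmt (1.15 and 1.19). Of 11 tested mitophagy genes, 6 and 5 were higher and 0 and 1 lower (median 0.24 and 0.26). Among all genes, 24.0% and 24.4% were higher and 30.3% and 30.2% lower. On library totals 3 and 3 mitophagy genes were higher and 6 and 6 lower (median -0.57 and -0.62). Of all genes on that scale, 7.68% and 8.43% were higher and 68.4% and 70.3% lower (median -0.95 and -1.04). On the TMM scale the inner membrane prohibitin Phb2 (1.50 and 1.53) and the mitophagy receptors Bcl2l13 (1.24 and 1.50) and Optn (0.98 and 2.18) rose. Between the white tissues, Optn (1.21, edgeR adjusted p = 0.0238) and the mitochondrial termination factor family gene Mterf4 (0.62, adjusted p = 0.0450) were higher in iWAT, where 5.7% of all genes were, and the receptor Bnip3l (-0.30, adjusted p = 0.0474) was lower, where 4.5% were. Among 11 nuclear regulators, 7 and 7 were higher on either scale and 3 and 2 lower (4 and 4 on library totals). Of all genes on library totals, 7.68% and 8.43% were higher and 68.4% and 70.3% lower. On the TMM scale 24.0% and 24.4% of all genes were higher and 30.3% and 30.2% lower. The oestrogen-related receptor Esrra rose by 2.22 and 2.40, the coactivator Ppargc1b by 3.76 and 4.07 and the ETS factor Gabpa by 1.10 and 1.31, while the coactivator Pprc1 (-0.72 and -0.55) and Gabpb1 (-0.40 and -0.37) were lower.

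For a reading of mitochondrial content, 13 of 13 import, porin and matrix genes were higher in iBAT in both comparisons (median 1.41 and 1.37). On library totals it was 11 of 13, where 7.68% and 8.43% of all genes were higher. Timm44 (1.93 and 2.02), Vdac2 (1.41 and 1.39) and Tomm22 (1.27 and 1.19) were among the 13 on the TMM scale. Of 83 tested nuclear genes of the respiratory chain, 79 were higher and 1 lower in each comparison (median 2.34 and 2.57), where 24.0% and 24.4% of all genes were higher, and the 13 mitochondrially encoded genes had medians of 2.48 and 3.28. Beside these medians, the estimates of Immt and Opa1 lay between the content genes and the respiratory chain, those of the mitofusins near the content genes and those of Mff, Tfam and Dnm1l below them. Yme1l1, Oma1 and Fis1 lay below the lowest content gene (0.57 and 0.46). The lists overlap in part, with Phb2 standing in 2 of them, and are described by counts and medians only.

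**Figure D5:**
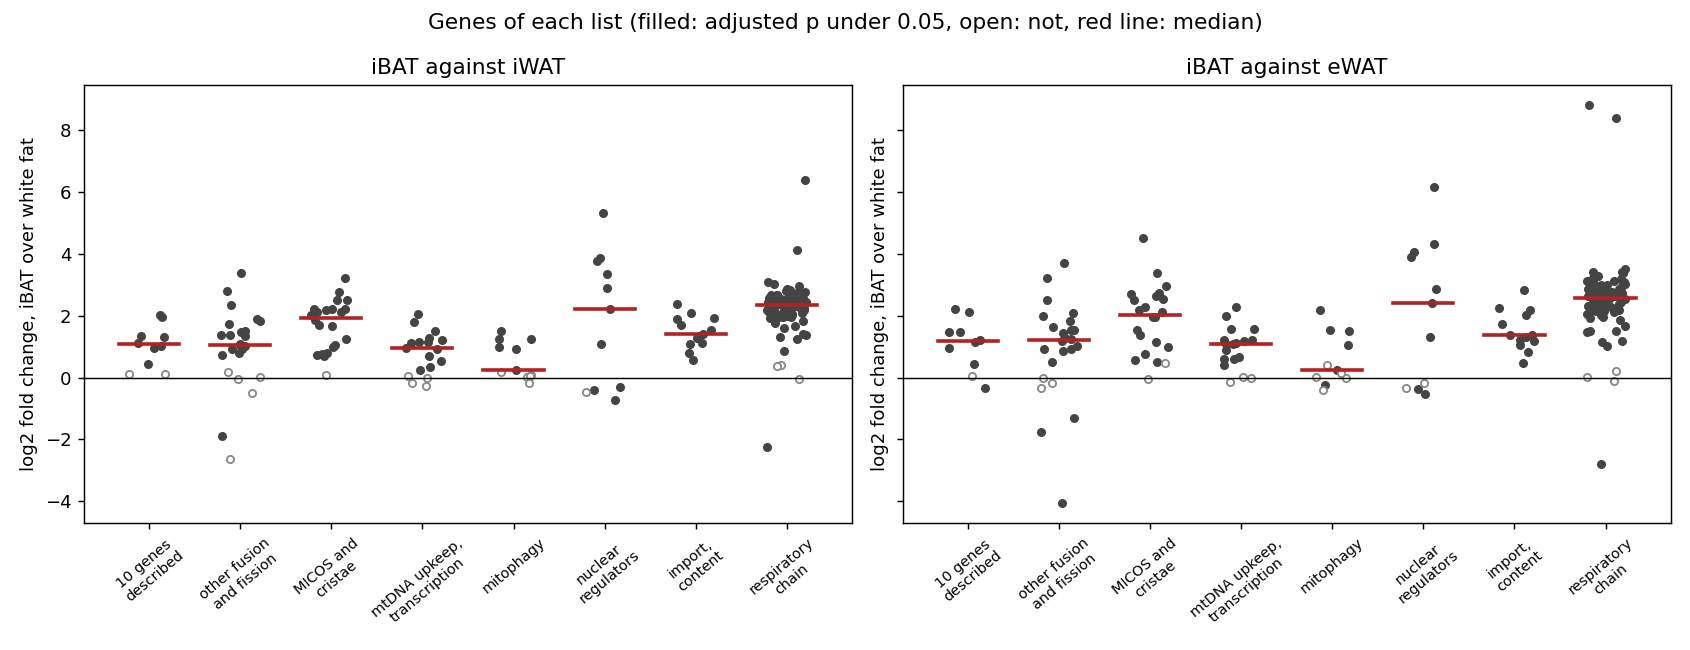
Log2 fold change on the TMM scale (vertical axis) of iBAT over iWAT (left) and over eWAT (right) for the 10 genes and 7 lists of mitochondrial genes. Each point is a gene, filled where the edgeR adjusted p was under 0.05, and red lines are medians. The median of the 10 genes (1.07 and 1.17) lies below those of the cristae list (1.93 and 2.03) and the respiratory chain (2.34 and 2.57). On library totals the mitophagy median is -0.57 and -0.62, where the median of all genes is -0.95 and -1.04.

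The study deleted Gm15551 to ask what its loss changes in adipose tissue, so the genotypes were compared last. Of the 10 genes, 0 passed edgeR's threshold across tissues, where 0.00534% of all genes were called, and 0 had an unadjusted p under 0.05. Within iBAT (0.0% of all genes called), iWAT (0.0%) and eWAT (0.00534%) it was again 0 of 10 by either measure, and 0 of 10 in the interaction of genotype and tissue (0.0%). DESeq2 and limma voom with quality weights also called 0 of 10 in each of these. The deleted Gm15551 was called by edgeR across tissues (log2 fold change -7.76) and in eWAT (-7.67). It was not called within iBAT (-9.16) or iWAT (-7.58), so there the test missed even the deleted gene, whose counts were low. Among the 10 genes the lowest unadjusted edgeR p across tissues was 0.108, for Tfam, at -0.12 ± 0.07 on the log2 scale. Fis1 followed at -0.08 ± 0.06 and Dnm1l at 0.06 ± 0.08, the last of which changed sign in 3 of 33 alternatives. The other 7 genes ran from -0.033 (Oma1) to 0.022 (Mfn2). The 95% interval was widest for Mfn2, with bounds of -22.9% and 33.6% for ko against wt, and for Tfam it ran from -16.5% to 1.98%. These intervals treat the 18 libraries as independent, although each mouse gave 3. With counts summed per mouse, 3 against 3, edgeR again called 0 of 10, with log2 fold changes of -0.17 for Tfam, -0.10 for Fis1 and 0.017 for Dnm1l (adjusted p = 1.0 for each).

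Non-overlapping groups of 3 were few. In iWAT, Tfam read 26.95, 25.7 and 31.8 CPM in wt 1 to 3 and 23.4, 24.0 and 24.8 CPM in ko 1 to 3, with every ko library below every wt library. Its log2 fold change there was -0.22 ± 0.12 (edgeR adjusted p = 1.0), and without the 4 libraries carrying other tissue it was -0.09. Fis1 in iWAT read 70.7, 70.6 and 73.6 CPM in wt and 66.9, 61.8 and 64.8 CPM in ko, also without overlap. In eWAT, Mfn1 read 42.3, 41.6 and 39.7 CPM in wt and 38.9, 38.3 and 37.1 CPM in ko, again with all ko libraries below. Such an arrangement in either direction was seen in 4.92% of all genes in iWAT and 5.25% in eWAT, and in iBAT, where the share was 4.94%, 0 of the 10 genes showed it. Of the neighbouring lists, 0 genes were called between genotypes across tissues or within any tissue.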

How the data were processed

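PolyA-selected paired-end libraries were prepared with the NEBNext Ultra II kit and sequenced on a NovaSeq. After quality filtering in cutadapt, the authors ran salmon on the GENCODE M22 transcripts (GRCm38), either alone or joined with RNAcentral. It is not given in the sources used here which of these served the table, how strand was set and how transcripts were summed to genes. The deposited values are estimated counts per gene, whole numbers without normalisation, for 54347 genes, of which 31886 had a symbol. Positions were found in GENCODE M21 for 54094.

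Genes were filtered by edgeR's filterByExpr within groups, scaled by TMM and tested with edgeR 4.0.16 (quasi-likelihood F-test, R 4.3.3), with tissue and genotype as terms for the tissue contrasts and for ko against wt across tissues, and with group means for ko against wt within a tissue and for the interaction. P-values were adjusted by Benjamini-Hochberg over all genes tested. A standard error was taken as the size of a log2 fold change over the root of its F. Ratios used counts plus 0.5 and an exact paired permutation test (SciPy 1.17.1). Groups came from the labels. The mouse identifier in the labels ties the 3 tissues of an animal, and deviations from the group means of libraries of the same mouse correlated between -0.17 and 0.33 over 18 pairs. wt and ko mice share only a number. No pair of replicates agreed within counting noise. The main edgeR p-values measure the spread between libraries, which were treated as independent although each mouse gave 3. Those of the paired ratio tests measure the spread between these mice.

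The 10 genes and all other lists were chosen with earlier results of these data known, as were the 4 libraries left out as carrying other tissue. Of each list other than the 10 genes, the text names up to 3 genes in each direction with the smallest p against eWAT among those past the threshold in both iBAT contrasts, those past it between iWAT and eWAT (up to 3 in each direction), and any past it between genotypes. Respiratory chain and mitochondrially encoded genes are given as counts and medians, and marker lists as summed CPM. For Mfn2 the 5 genes most correlated with it, among those with a symbol, are named. Alternatives were DESeq2 size factors, no filter, a minimum of 10 counts per library, the tests of DESeq2 1.42.0 and of limma 3.58.1 (voom with quality weights), leaving out the mitochondrial genome, the 4 libraries, each library or each mouse, a block for the mouse or the replicate number, fewer groups, sums per mouse, and for ratios a pseudocount of 5 or no pairing. edgeR on library totals with no TMM factor, with and without the mitochondrial genome, was added after the data were seen. The tests were first run on simulated data.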

Additional observations from a re-analysis of the deposited data

Results flagged for a closer look

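In 45 comparisons of a tissue's highest and lowest library, 3 values, from 2 libraries, lay far from those of the other 5 libraries of their tissue by Dixon's criterion, where chance gives about 1 in 20 (2.25). In eWAT ko 3, log2 CPM was lowest at 6.73 for Mfn2 (107 CPM) and at 5.74 for Opa1 (53.6 CPM), with a gap to the next library of 0.709 and 0.658 of the whole range. This library carried the epididymis markers (5005 CPM) and had the lowest adipocyte sum of eWAT (11013 CPM), and the part of either in the values was not tested. In eWAT wt 3 the log2 ratio of Mff to Fis1 was lowest at -0.74 (0.598 as a linear ratio, gap 0.641 of the range). The same mouse also had the lowest ratio in iWAT and in iBAT.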

How the results depend on the processing

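The 8 genes higher in iBAT kept their calls in the 34 alternatives of both comparisons that kept a scaling factor, with Mfn2 between 1.13 and 1.45 against iWAT and 1.35 and 1.56 against eWAT, and Immt between 1.81 and 2.14 and between 2.06 and 2.25 on the log2 scale. On library totals, and on those outside the mitochondrial genome, both added after the data were seen, the signs changed for Yme1l1 (-0.36 and -0.038 against iWAT, -0.44 and -0.087 against eWAT), Fis1 (-0.70 and -0.38, -0.80 and -0.45) and Oma1 against iWAT (-0.68 and -0.36), and on library totals Dnm1l (0.15 and 0.06) and Tfam against iWAT (0.19) lost their calls. No other called value changed sign. Oma1 did not keep its calls: leaving out a library or mouse gave -0.42 to -0.24 for iBAT against eWAT and -0.52 to -0.40 for iWAT against eWAT, and the count of the 10 genes called between the white tissues was 0 to 1. That count was also 0 with no filter, without the 4 libraries carrying other tissue, with wt only and with only the 2 tissues compared. Over all genes, 10164 (iBAT against iWAT), 10220 (iBAT against eWAT) and 1911 (iWAT against eWAT) were called, and 6595, 6574 and 247 with wt only. Between the white tissues it was 1149 with at least 10 counts in every library, 2980 with limma voom, 854 with only the 2 tissues and 750 to 2117 leaving out a library or mouse, with 1177, 839 and 1172 without the mouse wt 1, wt 2 or wt 3 and 1080 without iWAT ko 2. The size factors of DESeq2 moved the median over all genes from -0.14 to -0.13 and from -0.17 to -0.16. Among values that were not called, Fis1 in iBAT against eWAT was -0.017 with at least 10 counts in every library. Dnm1l between genotypes was -0.028 with limma voom, -0.013 without the 4 libraries and -0.028 to 0.14 leaving out a library or mouse, the lowest being without the mouse ko 1.

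For the within-library ratios, leaving out each mouse gave log2 differences of -0.10 to 0.13, -0.06 to 0.13 and -0.12 to 0.19 for Mfn2 to Mfn1 (iBAT and iWAT, iBAT and eWAT, iWAT and eWAT) and -0.08 to 0.05 for Immt to Opa1 in iWAT against eWAT. Signs changed for Mfn2 to Mfn1 without wt 1 (-0.0018 in the second comparison, -0.093 in the third), ko 1 (-0.017 in the third) and ko 3 (-0.060 in the second), among others within these ranges, and for Immt to Opa1 in the third without ko 1 (0.0013), ko 2 (0.050) and wt 3 (0.021). Over mice without a library carrying other tissue, Mfn2 to Mfn1 was -0.074 and -0.060 in the first 2 comparisons, and Immt to Opa1 was -0.057 in the first and 0.11 in the last. These rest on 2 to 5 mice, where the exact test cannot pass 0.05. With no pairing of mice (6 against 6 libraries, exact permutation test), 7 ratios passed: Yme1l1 to Oma1 at 0.32 (adjusted p = 0.0139), 0.76 and 0.44, Mff to Fis1 at 1.02 and 1.07, and Tfam to the mitochondrially encoded sum at -1.66 and -2.04 (adjusted p = 0.00541 for the others). The mouse as replicate block changed no call of the 10 genes between tissues, and the replicate number as block changed none between genotypes. The cause of these changes was not tested beyond the settings named. Oma1 had the lowest level of the 10 genes, at 8.66 to 16.5 CPM (136 to 679 counts), and the genotype comparisons rest on 3 mice each.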
